A study of Mus musculus with 15 samples.

Results

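Repeated transfection of mouse embryonic fibroblasts (MEFs) with synthetic MyoD mRNA, without any added small molecule, was compared with untransfected MEFs across all genes. The comparison held 6 of the 15 RNA-seq libraries of the series, the 3 titled +MyoD and the 3 titled MEFs. Its libraries were taken by title and not by a measured value. The comparison, gene lists and tests were chosen with earlier results of these data known. Every library came from primary MEFs that carried the Pax7-nGFP reporter transgene on a C57BL6;DBA2 background, and the same 3 MEF lines, numbered 1 to 3, gave a MEFs and a +MyoD library each. A line was grown from a single mid-gestation embryo without head and internal organs, so the 3 values of a group are biological replicates and the libraries are paired by line. MEFs cultures were untreated in iMPC medium. The +MyoD cultures received 4 transfections of the synthetic mRNA in the same medium with B18R, a soluble decoy receptor for type I interferon. The labels give day 10 for both groups, whereas the deposited data of the MEFs are marked as day 0. Transfection reagent, B18R, time in culture and MyoD itself therefore cannot be told apart in any of the differences below.

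MyoD is a basic helix-loop-helix (bHLH) transcription factor that binds DNA as a dimer with an E protein at the E-box, a short motif of the form CANNTG. It starts the skeletal muscle program in non-muscle cells, first through myogenin and MEF2 factors and then through genes of the contractile apparatus, and muscle differentiation is coupled to withdrawal from the cell cycle. In embryonic fibroblasts these events meet a cell that divides and secretes extracellular matrix. In bulk RNA a larger number of converted cells and more RNA per converted cell cannot be told apart.

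The 6 libraries held 33963335 to 40651433 estimated counts that belonged to transcripts. Levels are given as CPM, the count of a gene scaled to a common library size by TMM, in the order of lines 1, 2 and 3. A value after ± is the SD of 3 libraries for a level. For a log2 fold change (log2FC, +MyoD over MEFs) it is an approximate standard error. It was taken as the size of the log2FC over the square root of the F statistic of the test below. That test draws its spread from a fit of all 15 libraries. The quasi-likelihood test of edgeR, with the line as a block, was applied to 19331 genes. Genes with an adjusted p (Benjamini-Hochberg) no greater than 0.05 and a log2FC above 0.5 in size were called higher or lower. Where all 3 libraries of a group had no count, a fold is a lower bound against 3 counts over that group, which covers counting error only. Reads shared by near-identical transcripts were apportioned by kallisto, which leaves the values of close paralogs uncertain.

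Myod1 (ENSMUSG00000009471.4, chromosome 7 from 46376474 to 46379099 on GRCm38) was nearly silent in MEFs and among the most abundant transcripts after transfection. Its level was 0.556, 0.113 and 0.410 CPM in MEFs and 3481, 1615 and 1722 CPM in +MyoD. The groups did not overlap, line 1 with +MyoD had the highest level, and the difference was log2FC 12.67 ± 0.44, adjusted p = 8.76e-10. Myod1 was quantified as a single transcript, so synthetic and endogenous mRNA cannot be told apart. The study's methods place the 3′ untranslated region of an alpha-globin gene behind the MyoD coding sequence. Hba-a1, the gene named there, was at 0 counts in all 6 libraries, while Hba-a2 (ENSMUSG00000069917.7, chromosome 11 from 32296489 to 32297298), its near-identical neighbour, had 0, 0.0283 and 0.0293 CPM in MEFs and 188, 54.0 and 79.2 CPM in +MyoD, a ratio of 5557, 95% interval 1538 to 45888, with adjusted p = 2.11e-07. The order of the +MyoD libraries was the same for Hba-a2 as for Myod1, with line 1 highest and line 2 lowest. The beta-globin genes Hbb-bs, Hbb-bt and Hbb-y were at 0 counts in the 6 libraries. Which transcript gave the Hba-a2 reads was not tested.

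Of the 19331 genes, 4357 (22.5%) were called higher and 3596 (18.6%) lower with +MyoD, 41.1% in all. Increases were larger than decreases. The median log2FC was 1.61 among genes called higher and −1.03 among genes called lower, and 401 genes rose by more than 5 on the log2 scale against 61 that fell by as much. The median over all tested genes was 0.098. Of the genes called higher, 4135 had a higher level in +MyoD in every line and 3930 had no overlap between the groups, and for genes called lower the counts were 3526 and 3432. Groups did not overlap in 9916 of all tested genes. The genes called higher took 13.2, 12.9 and 13.1% of the counts in MEFs and 31.1, 39.5 and 36.6% in +MyoD, and those called lower 45.6, 46.6 and 45.7% in MEFs and 26.7, 21.4 and 22.9% in +MyoD. Calls were more frequent among protein-coding genes (25.2% higher, 21.7% lower) than among the 2437 long noncoding RNAs (10.9% higher, 3.86% lower). The +MyoD libraries were also less alike than the MEFs libraries, with a biological coefficient of variation of 0.49 against 0.21 when each group was fitted alone. The common value of the fit of all 15 libraries was 0.31. Standard errors and p-values may therefore be too small for genes that vary between the +MyoD libraries.

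**Figure D1:**
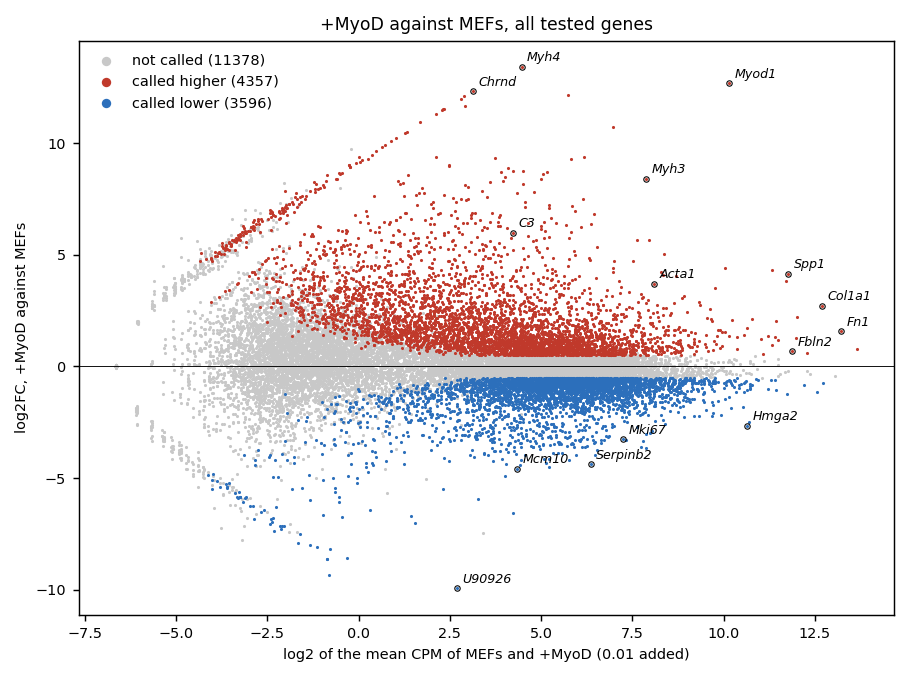
Each point is 1 of the 19331 tested genes. The x axis is the log2 of the mean level over both groups (CPM, with 0.01 added) and the y axis the log2FC of +MyoD over MEFs. Genes called higher (4357, red) reach far beyond genes called lower (3596, blue) in fold, and the sloping edge at the left holds genes without a count in 1 of the groups. Black rings mark genes named in the text.

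The genes with the largest increases were mostly genes of the muscle fibre. Among genes with at least 1 CPM in +MyoD, no overlap and the same direction in each line, the 12 highest log2FC values belonged to Myh4, Myod1, Chrnd, Hba-a2, Igfn1, Xirp1, Cyp2f2, Lmod3, Mymx, Lmod2, Sypl2 and Apobec2. All but Myod1 and Hba-a2 were at 0 counts in the 3 MEFs libraries. Myh4, the fast IIb myosin heavy chain, reached 11.6, 22.2 and 98.8 CPM in +MyoD (at least 1568-fold higher, adjusted p = 2.65e-06). Chrnd, the delta subunit of the muscle acetylcholine receptor, reached 15.8, 10.4 and 26.9 CPM (at least 622-fold higher, adjusted p = 3.61e-08). Igfn1, an immunoglobulin-domain protein of the muscle sarcomere, reached 12.1, 15.1 and 17.2 CPM (at least 521-fold higher, adjusted p = 1.31e-08). Mymx, the short membrane protein also called myomixer that acts in myoblast fusion, reached 8.87, 10.04 and 11.0 CPM (at least 351-fold higher, adjusted p = 1.98e-08). Sypl2, a membrane protein of the triad, reached 7.02, 5.06 and 14 CPM, and Apobec2, a muscle-rich member of the cytidine deaminase family, reached 7.27, 4.98 and 7.03 CPM. Cyp2f2, a cytochrome P450 known from airway cells, stood apart from this group in its spread, with 0.971, 6.81 and 37.2 CPM and adjusted p = 1.06e-04. In all, 37 tested genes had no count in MEFs and at least 1 CPM in +MyoD, of which 35 were called, 9 belonged to the muscle structure lists below and 10 to any list.

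The largest decreases were in genes of low or moderate level. Only 5 tested genes had at least 1 CPM in MEFs and no count in +MyoD, and all 5 were called. U90926 fell from 17.6, 11.9 and 9.04 CPM to 0.0313, 0 and 0 CPM (a +MyoD to MEFs ratio of 0.000775, 95% interval 0.0000196 to 0.00432, adjusted p = 3.31e-05). Wnt7a, a Wnt ligand, fell from 1.20, 4.39 and 1.78 CPM to 0.0626, 0 and 0 CPM (a ratio of 0.00814, 95% interval 0.000981 to 0.0297). Lce1h, a protein of the cornified envelope of skin, fell from 20.7, 39.4 and 46.0 CPM to 5.70, 0 and 0 CPM, and Ush1g, a scaffold protein of hair cells, from 5.95, 4.59 and 5.36 CPM to 0.313, 0 and 0 CPM. Prl3d3, a placental member of the prolactin family, had 0.473, 0.481 and 3.77 CPM in MEFs and no count in +MyoD (at least 51.5-fold lower). Rab39b, Gm3776, Zfp711, Gm14698, Kcnip1, AC113458.1 and A730089K16Rik completed the 12 lowest. Prl3d3, AC113458.1 and A730089K16Rik had no count in +MyoD, and the other genes of this group kept counts in +MyoD in line 1 only.

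Among abundant genes the rise was in secreted matrix and the fall in the actin cytoskeleton and chaperones. By mean CPM in +MyoD the top 10 genes called higher were Thbs1, Fn1, Col1a1, Col1a2, Spp1, H19, mt-Co1, Bgn, Col3a1 and Fbln2, of which 8 encode secreted or matrix proteins. Fn1, fibronectin, had 3627, 5598 and 4664 CPM in MEFs and 21390, 14178 and 7880 CPM in +MyoD (log2FC 1.58 ± 0.25, adjusted p = 1.46e-04). Spp1, osteopontin, had 365, 269 and 491 CPM in MEFs and 5030, 6013 and 8828 CPM in +MyoD (log2FC 4.14 ± 0.16, adjusted p = 1.89e-09), without overlap. Thbs1, thrombospondin 1, had 6808, 12128 and 9755 CPM in MEFs and 13838, 24359 and 10989 CPM in +MyoD (log2FC 0.79 ± 0.24, adjusted p = 0.0143), and its groups overlapped, as did those of Fbln2, a fibulin of elastic fibres. The increase of mt-Co1, a mitochondrially encoded subunit of cytochrome oxidase, was small (log2FC 0.59 ± 0.19, adjusted p = 0.0202), from 3809, 3888 and 4168 CPM to 4320, 7333 and 6258 CPM. Among the top 10 genes called lower by mean CPM in MEFs were Actg1, Actb, Flna, Hsp90ab1, Tpm1, Hspa8, Hmga1 and Hmga2. Actb, cytoplasmic beta-actin and a common reference gene, had 7862, 8625 and 8551 CPM in MEFs and 3988, 4566 and 2872 CPM in +MyoD (log2FC −1.14 ± 0.15, adjusted p = 2.64e-05). Hmga2, a chromatin protein of proliferating embryonic cells, had 2647, 2758 and 2826 CPM in MEFs and 558, 289 and 549 CPM in +MyoD (log2FC −2.65 ± 0.20, adjusted p = 2.93e-07), and Hmga1 had 2561, 2819 and 2931 CPM in MEFs and 925, 256 and 439 CPM in +MyoD (log2FC −2.50 ± 0.29, adjusted p = 1.15e-05). Hsp90ab1, a cytosolic chaperone, fell from 3723 ± 25.3 to 1777 ± 222 CPM (log2FC −1.07 ± 0.11). Flna encodes an actin-crosslinking filamin. Of 17 other settings of the analysis the call was lost in 10 for Fbln2, in 6 for mt-Co1 and in 4 for Thbs1.

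Several partners of MyoD in the muscle regulatory network rose, while Myf5, of the same bHLH family, was near 0 in both groups. Of 18 myogenic transcription factors, 11 were called higher, 2 lower and 5 neither, with a median log2FC of 0.81. The shares over all tested genes were 22.5% higher and 18.6% lower. Myog, myogenin, had 0.639, 0.0566 and 0.234 CPM in MEFs and 36.6, 18.6 and 28.0 CPM in +MyoD (log2FC 6.45 ± 0.54, adjusted p = 5.48e-07), with no overlap. Myf6, known as MRF4 and active in later differentiation, had no count in MEFs and 0.532, 0.0873 and 1.54 CPM in +MyoD (at least 25.3-fold higher, adjusted p = 6.47e-04). Myf5, the family member of early myoblasts, was at 0.0834, 0.142 and 0 CPM in MEFs and at 0 counts in the 3 +MyoD libraries (adjusted p = 0.0501, not called). Mef2c, a MADS-box partner of MyoD, had 5.56, 2.75 and 4.16 CPM in MEFs and 88.9, 53.7 and 96.2 CPM in +MyoD (log2FC 4.26 ± 0.21, adjusted p = 9.50e-09), and Mef2a rose from 119 ± 12.4 to 204 ± 25.7 CPM (log2FC 0.77 ± 0.14), whereas Mef2d was at 155 ± 30.4 CPM in MEFs and 164 ± 10.3 CPM in +MyoD and not called. Smyd1, a methyltransferase needed for sarcomere assembly, rose from 0.260 ± 0.206 to 29.1 ± 12.4 CPM (log2FC 6.79 ± 0.43), and Vgll2, a TEAD cofactor, from 0.0283 ± 0.0490 to 6.93 ± 0.536 CPM (a +MyoD to MEFs ratio of 244, 95% interval 83.0 to 1184). Pitx3, a homeobox factor of muscle development, also rose (ratio 28.1, 95% interval 9.28 to 139). Eya4, an Eya factor of muscle development, rose by 1.48 on the log2 scale. The E proteins, with which MyoD dimerizes, differed among themselves. Tcf4 rose (log2FC 0.72 ± 0.15), Tcf12 fell (log2FC −0.50 ± 0.12, adjusted p = 0.0034), close to the threshold, and Tcf3 was not called (log2FC −0.43 ± 0.14). Tead4, a TEAD factor, fell from 46.3 ± 8.61 to 13.1 ± 5.97 CPM (log2FC −1.84 ± 0.30).

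**Figure D2:**
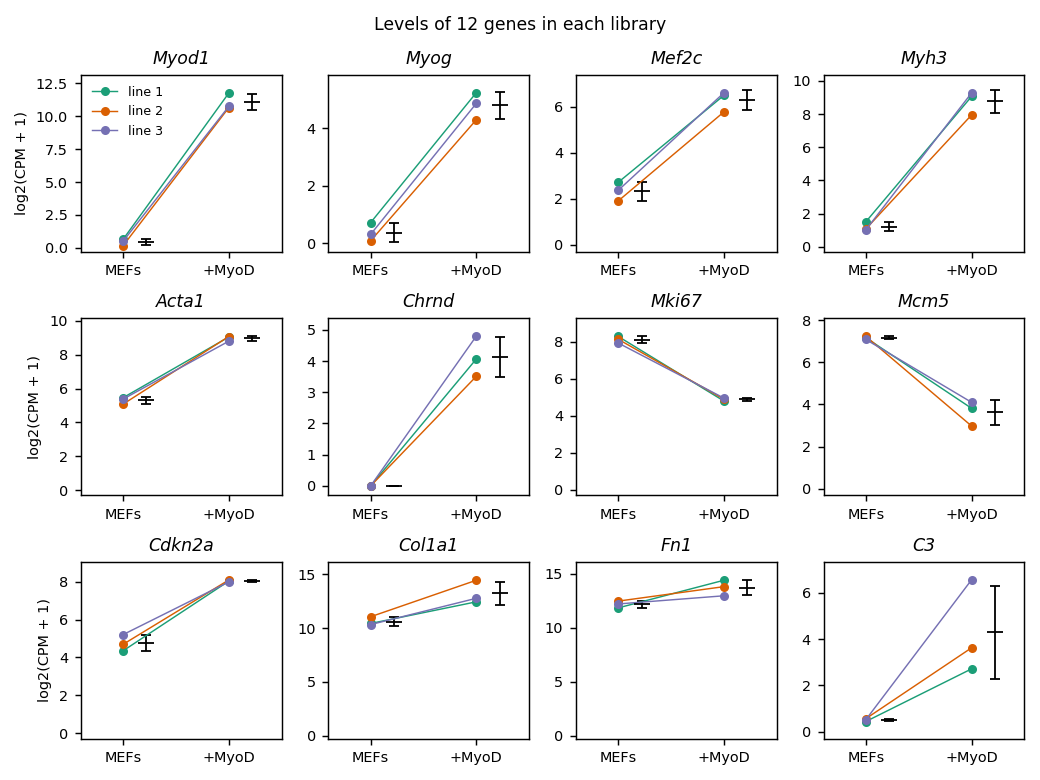
Levels of 12 genes in the MEFs and +MyoD library of each line, on the y axis as log2(CPM + 1). Coloured points are lines 1 to 3, joined within a line, and black bars beside them are the mean ± SD of these log2 values over 3 libraries. Myod1, Myog, Mef2c, Myh3, Acta1 and Chrnd are higher and Mki67 and Mcm5 lower in +MyoD in each line, and C3 has the widest spread between lines.

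Of 15 bHLH antagonists and repressors, 2 were called higher and 4 lower, against 22.5% and 18.6% of all tested genes, and against a log2FC of 0.5 the number lower was 2. These counts do not set the list apart from other genes. Id proteins lack the basic region and keep E proteins from MyoD. Id4 fell from 13.7 ± 5.23 to 3.38 ± 0.337 CPM (log2FC −1.98 ± 0.21, adjusted p = 3.71e-06), Id2 from 36.4 ± 8.06 to 17.2 ± 3.27 CPM (log2FC −1.08 ± 0.18) and Id1 from 84.0 ± 11.8 to 50.2 ± 2.43 CPM (log2FC −0.74 ± 0.20), whereas Id3, the most counted of the family, was at 169.7 ± 22.8 CPM in MEFs and 212 ± 32.6 CPM in +MyoD and not called. Zeb1, a repressor that also binds E-boxes, rose from 56.6 ± 6.88 to 174 ± 34.0 CPM (log2FC 1.63 ± 0.15, adjusted p = 1.38e-06), and Bhlhe40, a repressor of the clock family, from 39.7 ± 18.7 to 119.9 ± 72.0 CPM (log2FC 1.58 ± 0.27). Zeb2 fell (log2FC −0.80 ± 0.22) with overlapping groups. Twist1 and Twist2, bHLH repressors of mesenchyme, had log2FC values of 0.49 ± 0.27 each and were not called.

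Each functional class of the contractile apparatus and its membranes held more genes called higher than lower. Over all tested genes the shares were 22.5% higher and 18.6% lower. In the 5 muscle structure lists together (thick filament, thin filament, Z-disc, excitation-contraction coupling and neuromuscular junction), 77 of 94 tested members were called higher and 5 lower, with a median log2FC of 6.02, or 5.96 with genes at 0 set to their bound. For the 94 members the median of the within-line log2 differences was 5.23, 5.58 and 5.61 in lines 1 to 3. The lists took 0.799, 0.826 and 0.766% of the counts in MEFs and 1.10, 0.916 and 1.08% in +MyoD. The 5 members called lower, Tpm1, Tpm3, Flnc, Atp2a2 and Jph1, were already expressed in MEFs.

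The thick filament had the highest median log2FC of the 36 functional gene lists. Of 22 thick filament and M-band genes, 20 were called higher and none lower, against 22.5% and 18.6% of all tested genes. Their median log2FC was 7.78 (7.496 with bounds). Developmental myosin heavy chains dominated. Myh3, the embryonic heavy chain, had 1.83, 1.10 and 1.02 CPM in MEFs and 534, 246 and 618 CPM in +MyoD (log2FC 8.41 ± 0.38, adjusted p = 5.79e-09), and Myh8, the perinatal heavy chain, had 0.167, 0.0283 and 0.234 CPM in MEFs and 187, 198 and 366 CPM in +MyoD (log2FC 10.71 ± 0.34, adjusted p = 4.53e-10). Per transcript length, Myh3 stood at 126 ± 56.6 TPM in +MyoD and Myh8 at 66.6 ± 27.4 TPM, against 23.5 ± 4.996 TPM for Myh7 (slow, also cardiac), 12.04 ± 13.2 TPM for Myh4 (fast IIb), 8.41 ± 8.27 TPM for Myh1 (fast IIx) and 1.34 ± 0.554 TPM for Myh2 (fast IIa). The SDs of Myh1 and Myh4 were as large as their means, with line 3 highest, so their order is not resolved. Among light chains Myl1 rose from 0.208 ± 0.140 to 143 ± 51.7 CPM (log2FC 9.37 ± 0.33), Mylpf from 0.734 ± 0.400 to 140.3 ± 53.5 CPM (log2FC 7.51 ± 0.37) and Myl4, an embryonic light chain, from 1.80 ± 0.599 to 135 ± 41.6 CPM (log2FC 6.25 ± 0.30). Myl2, the ventricular and slow regulatory light chain, was at 0.407, 0.0873 and 0.415 CPM in +MyoD and not called. The M-band gene Myom1, myomesin, rose from 1.60 ± 0.364 to 48.7 ± 12.6 CPM (log2FC 4.94 ± 0.21). Mylk2, a skeletal myosin light chain kinase, was at 2.82 ± 0.892 CPM in MEFs and 1.496 ± 0.339 CPM in +MyoD and not called (log2FC −0.82 ± 0.49).

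In the thin filament, muscle isoforms of actin and troponin rose and Tpm1 and Tpm3, of the tropomyosins, fell. Of 18 members, 13 were called higher and 2 lower, against 22.5% and 18.6% of all tested genes, with a median log2FC of 5.24. Their summed share was 0.436, 0.421 and 0.419% of the counts in MEFs and 0.440, 0.369 and 0.390% in +MyoD, and it was lower in +MyoD than in MEFs in lines 2 and 3. Acta1, skeletal alpha-actin, had 43.1, 32.9 and 40.6 CPM in MEFs and 529, 541 and 446 CPM in +MyoD (log2FC 3.69 ± 0.23, adjusted p = 5.44e-08), and Actc1, cardiac alpha-actin that is also used in embryonic muscle, rose from 1.72 ± 1.15 to 112 ± 35.9 CPM (log2FC 6.02 ± 0.39). All 3 classes of troponin T were called. The fast form Tnnt3 rose from 0.179 ± 0.153 to 63.9 ± 29.4 CPM (log2FC 8.38 ± 0.36), the slow form Tnnt1 from 0.578 ± 0.0771 to 49.7 ± 13.2 CPM (log2FC 6.41 ± 0.25) and the cardiac form Tnnt2 from 5.49 ± 1.49 to 50.9 ± 12.01 CPM (log2FC 3.23 ± 0.21). Fast Tnnc2 and slow Tnnc1, the calcium-binding subunits, rose by 8.90 and 4.89 on the log2 scale, and fast Tnni2 and slow Tnni1, the inhibitory subunits, by 6.85 and 5.73. Lmod2 and Lmod3, actin nucleators of the sarcomere, had no count in MEFs and 9.84, 8.21 and 11.0 CPM and 12.5, 8.06 and 9.49 CPM in +MyoD (at least 340.3-fold and at least 350.5-fold higher). Neb, the thin filament ruler nebulin, rose from 1.09 ± 0.300 to 53.9 ± 17.6 CPM (log2FC 5.59 ± 0.29). Tpm3 fell from 968 ± 69.0 to 434 ± 62.8 CPM (log2FC −1.17 ± 0.11, adjusted p = 2.30e-06) and Tpm1 from 3260 ± 62.2 to 2134 ± 338 CPM (log2FC −0.60 ± 0.16, adjusted p = 0.00724), and Tpm2 was at 451 ± 23.1 CPM in MEFs and 621 ± 63.9 CPM in +MyoD and not called (log2FC 0.46 ± 0.14). These gene sums hold muscle and non-muscle transcripts of each tropomyosin.

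At the Z-disc, 17 of 21 genes were called higher and 1 lower, against 22.5% and 18.6% of all tested genes. The median log2FC was 5.97. Ttn, titin, had 0.695, 0.793 and 0.702 CPM in MEFs and 104, 43.9 and 82.2 CPM in +MyoD (log2FC 6.65 ± 0.33, adjusted p = 9.59e-09). Des, the muscle intermediate filament desmin, had 44.3, 32.5 and 26.1 CPM in MEFs and 476, 768 and 599 CPM in +MyoD (log2FC 4.11 ± 0.27, adjusted p = 7.78e-08), and Klhl41, a sarcomeric kelch protein, rose from 0.209 ± 0.0342 to 25.1 ± 6.45 CPM (log2FC 6.87 ± 0.19, adjusted p = 2.12e-10). Actn2 and Actn3, the muscle alpha-actinins, rose by 6.43 and 6.31 on the log2 scale. Xirp1, a repair protein of the Z-disc and intercalated disc, had no count in MEFs and 14.3, 8.18 and 19.4 CPM in +MyoD. Csrp3, a mechanosensing LIM protein, rose from 0.0774 ± 0.0896 to 13.8 ± 1.60 CPM (log2FC 7.51 ± 0.50), and Myoz2, an alpha-actinin and calcineurin binder, from 0.0777 ± 0.111 to 12.7 ± 2.87 CPM (log2FC 7.34 ± 0.43). Flnc, filamin C, fell from 1404 ± 243 to 891 ± 331 CPM (log2FC −0.65 ± 0.24, adjusted p = 0.0365) with overlapping groups.

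Calcium handling followed the sarcomere. Of 20 genes of excitation-contraction coupling, 16 were called higher and 2 lower, against 22.5% and 18.6% of all tested genes. Their median log2FC was 6.08 (4.89 with bounds). Atp2a1, the SERCA1 pump of fast fibres, had 0.111, 0.227 and 0.176 CPM in MEFs and 80.4, 94.8 and 162 CPM in +MyoD (log2FC 9.30 ± 0.27, adjusted p = 2.12e-10), while Atp2a2, the SERCA2 pump that most cells use, fell from 673 ± 20.98 to 441 ± 43.0 CPM (log2FC −0.61 ± 0.11, adjusted p = 4.06e-04). Ryr1, the release channel of the sarcoplasmic reticulum, rose from 1.28 ± 0.228 to 72.8 ± 29.0 CPM (log2FC 5.80 ± 0.30), and Cacna1s, the voltage sensor that opens it, from 0.150 ± 0.112 to 45.1 ± 12.2 CPM (log2FC 8.18 ± 0.41). The adaptor Stac3 rose from 1.03 ± 0.315 to 4.22 ± 2.04 CPM (log2FC 1.98 ± 0.37) and Jsrp1 from 0.0947 ± 0.0144 to 8.26 ± 3.25 CPM (log2FC 6.36 ± 0.30). Casq2 and Casq1, calcium-storing calsequestrins, rose by 7.36 and 6.80 on the log2 scale. Trdn, triadin, had no count in MEFs and 2.38, 3.11 and 4.30 CPM in +MyoD (at least 115-fold higher), Sln, the SERCA inhibitor sarcolipin, 0.752, 1.34 and 4.07 CPM, and Pvalb, a calcium buffer of the fastest fibres, 0.219, 0.116 and 1.01 CPM. Junctophilins split, since Jph2 rose (log2FC 1.96 ± 0.30) and Jph1 fell (log2FC −0.97 ± 0.16).

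Genes of the postsynaptic membrane rose as well. Of 13 tested neuromuscular junction and excitability genes, 11 were called higher and none lower, against 22.5% and 18.6% of all tested genes. Their median log2FC was 5.74. Among subunits of the acetylcholine receptor, Chrna1 had 3.92, 6.51 and 7.49 CPM in MEFs and 77.8, 39.9 and 92.5 CPM in +MyoD (log2FC 3.52 ± 0.28, adjusted p = 3.94e-07) and Chrng, the embryonic gamma subunit, had 0, 0 and 0.117 CPM in MEFs and 24.0, 16.5 and 39.3 CPM in +MyoD (log2FC 9.31 ± 0.47, adjusted p = 9.50e-09), and Chrnd was described above. Chrnb1 was at 17.8 ± 4.55 CPM in MEFs and 19.8 ± 4.94 CPM in +MyoD and not called. Chrne, the subunit of the adult receptor, was not tested, with 0 counts in the 3 +MyoD libraries. Musk, the receptor kinase that organizes the synapse, rose from 0.00944 ± 0.0163 to 8.70 ± 3.50 CPM (a ratio of 911, 95% interval 163 to 36029), its adaptor Dok7 from 0.420 ± 0.168 to 4.87 ± 1.98 CPM (log2FC 3.55 ± 0.37), the agrin co-receptor Lrp4 from 6.60 ± 0.970 to 26.6 ± 7.44 CPM (log2FC 2.01 ± 0.19) and the receptor-clustering protein Rapsn from 0.0381 ± 0.0330 to 2.69 ± 0.705 CPM (log2FC 6.02 ± 0.53). Colq and Ache, the collagen tail and catalytic subunit of acetylcholinesterase, rose by 6.56 and 5.74 on the log2 scale.

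The palindromic E-box CAGCTG was counted in the promoters of these muscle genes, in RefSeq windows from 250 bases before to 50 bases after each annotated start (GRCm38.p6). CAGCTG, which is its own reverse complement, was present in 32 of 86 promoters of the muscle structure lists (37.2%), against 16.3% of all 32851 promoters, 16.1% of promoters of tested genes, 20.3% of those of genes called higher and 11.9% of those of genes called lower. Promoters of 1 gene can overlap, so the 86 windows stand for 67 genes. The lists hold 95 genes, and those without a window are not covered. CAGGTG on either strand was present in 26.7% of the muscle windows and 20.2% of all windows, and any CANNTG, which includes both, in 80.2% and 72.3%. These are counts of letters in a window and not binding sites, and no test was made. The windows of 4 genes called higher that hold CAGCTG are shown, chosen for a synaptic, a light chain, an actin nucleator and a heavy chain gene, with that of Myog, which holds CANNTG but not CAGCTG. Every CANNTG is in capitals, and sequences run 5′ to 3′ on the strand of the gene.
Chrng (chr1:87205561-87205860, plus strand): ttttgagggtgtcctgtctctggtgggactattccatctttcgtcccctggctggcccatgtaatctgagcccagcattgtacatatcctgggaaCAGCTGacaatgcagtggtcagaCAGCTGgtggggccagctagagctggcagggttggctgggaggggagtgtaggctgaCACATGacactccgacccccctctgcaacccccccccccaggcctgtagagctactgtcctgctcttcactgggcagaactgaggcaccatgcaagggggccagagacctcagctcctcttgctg
Mylpf (chr7:127211358-127211657, plus strand): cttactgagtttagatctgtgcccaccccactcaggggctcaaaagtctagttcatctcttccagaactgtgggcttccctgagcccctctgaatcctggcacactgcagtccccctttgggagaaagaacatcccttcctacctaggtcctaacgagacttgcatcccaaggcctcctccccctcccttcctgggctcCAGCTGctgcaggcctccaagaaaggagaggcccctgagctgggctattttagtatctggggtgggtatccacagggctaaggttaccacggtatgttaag
Lmod2 (chr6:24597521-24597820, plus strand): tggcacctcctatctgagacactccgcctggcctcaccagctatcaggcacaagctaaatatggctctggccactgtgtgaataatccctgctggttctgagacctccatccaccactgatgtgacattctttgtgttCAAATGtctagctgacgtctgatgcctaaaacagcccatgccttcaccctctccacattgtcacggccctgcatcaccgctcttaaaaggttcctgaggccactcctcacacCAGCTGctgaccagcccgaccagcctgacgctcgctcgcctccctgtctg
Myh4 (chr11:67237562-67237861, plus strand): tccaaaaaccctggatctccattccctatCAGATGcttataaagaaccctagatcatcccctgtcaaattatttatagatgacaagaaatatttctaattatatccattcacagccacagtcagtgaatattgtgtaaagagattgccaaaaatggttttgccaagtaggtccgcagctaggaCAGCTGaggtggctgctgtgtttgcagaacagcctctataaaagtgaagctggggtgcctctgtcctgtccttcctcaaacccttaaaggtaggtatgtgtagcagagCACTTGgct
Myog (chr1:134289754-134290053, plus strand): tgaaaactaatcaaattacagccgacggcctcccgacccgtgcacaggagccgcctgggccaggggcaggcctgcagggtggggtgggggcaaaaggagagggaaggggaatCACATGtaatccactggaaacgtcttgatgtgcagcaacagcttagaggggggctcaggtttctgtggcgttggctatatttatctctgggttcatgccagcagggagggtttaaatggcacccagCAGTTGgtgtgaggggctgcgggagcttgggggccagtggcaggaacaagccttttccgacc
The Chrng window holds 3 CANNTG motifs of which 2 are CAGCTG, the Mylpf window 1 of which 1, the Lmod2 window 2 of which 1, the Myh4 window 3 of which 1, and the Myog window 2 of which 0.

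Both membrane proteins that drive myoblast fusion rose. Mymk, myomaker, had 0.0278, 0 and 0.293 CPM in MEFs and 55.6, 26.6 and 53.2 CPM in +MyoD (log2FC 8.73 ± 0.54, adjusted p = 4.63e-08), and Mymx was described above. Of 15 fusion and adhesion genes, 9 were called higher and 2 lower, against 22.5% and 18.6% of all tested genes. Their median log2FC was 1.80. Cdh15, M-cadherin, rose from 0.665 ± 0.306 to 25.8 ± 13.5 CPM (log2FC 5.24 ± 0.45), while Cdh2, N-cadherin, fell from 352 ± 26.6 to 158 ± 77.0 CPM (log2FC −1.24 ± 0.22, adjusted p = 3.91e-04). Itga7, the laminin receptor subunit of muscle, rose from 41.2 ± 5.46 to 211 ± 64.4 CPM (log2FC 2.32 ± 0.16, adjusted p = 8.93e-08), and Dysf, the membrane repair protein dysferlin, from 56.6 ± 2.69 to 208 ± 22.1 CPM (log2FC 1.88 ± 0.17), whereas its relative Myof fell from 755 ± 19.02 to 459 ± 103 CPM (log2FC −0.74 ± 0.13). Boc and Cdon, surface receptors that promote differentiation, rose by 2.07 and 0.85 on the log2 scale.

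The dystrophin complex and muscle metabolism rose with more modest folds. Of 13 dystrophin complex genes, 10 were called higher and none lower (median log2FC 1.297), against 22.5% and 18.6% of all tested genes. Sgca, a sarcoglycan restricted to striated muscle, rose from 0.131 ± 0.158 to 4.98 ± 2.06 CPM. Dag1, dystroglycan, rose from 168 ± 9.07 to 414 ± 33.1 CPM (log2FC 1.297 ± 0.10, adjusted p = 1.92e-07). Dmd itself was at 19.4 ± 1.84 CPM in MEFs and 28.3 ± 6.03 CPM in +MyoD, with no overlap, and was not called (log2FC 0.55 ± 0.26, adjusted p = 0.105). Of 18 genes of muscle energy metabolism, 15 were called higher and none lower (median log2FC 2.91), against the same shares of all tested genes. Pygm, muscle glycogen phosphorylase, rose from 0.787 ± 0.108 to 23.2 ± 6.57 CPM (log2FC 4.87 ± 0.18, adjusted p = 1.89e-09), Pfkm, muscle phosphofructokinase, from 24.8 ± 3.09 to 89.7 ± 14.6 CPM (log2FC 1.84 ± 0.15, adjusted p = 4.26e-07), and Mb, myoglobin, from 0.0585 ± 0.101 to 15.8 ± 4.21 CPM (log2FC 8.04 ± 0.63). Ckm, muscle creatine kinase, rose to 2.91, 4.83 and 5.16 CPM from 0.0556, 0 and 0.0585 CPM (log2FC 6.69 ± 0.39, adjusted p = 3.11e-08).

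Markers of satellite cells, the stem cells of adult muscle, were divided. Of 25 genes, 9 were called higher, 1 lower and 15 neither, with a median log2FC of 0.65. Over all tested genes 22.5% were called higher and 18.6% lower. Pax7, the defining factor, had 0.111, 0 and 0 CPM in MEFs and 0, 0 and 0 CPM in +MyoD and was not called. The 9 called higher include genes that are also expressed outside satellite cells, such as Notch3, a receptor also used by mural cells (10.8 ± 3.21 to 169.8 ± 18.5 CPM, log2FC 3.97 ± 0.23, adjusted p = 2.58e-08), Cd82 (5.56 ± 0.539 to 30.0 ± 1.03 CPM) and Spry1 (20.9 ± 3.29 to 90.1 ± 48.8 CPM), and genes shared with the fusion list, Itga7 and Cdh15. Met, the receptor of hepatocyte growth factor, fell from 118 ± 5.67 to 30.9 ± 1.44 CPM (log2FC −1.93 ± 0.15, adjusted p = 2.60e-07). Sox8 and Fgfr4 were at 0.595, 1.11 and 1.39 CPM and at 1.03, 1.86 and 0.623 CPM in +MyoD and were not called.

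**Figure D3:**
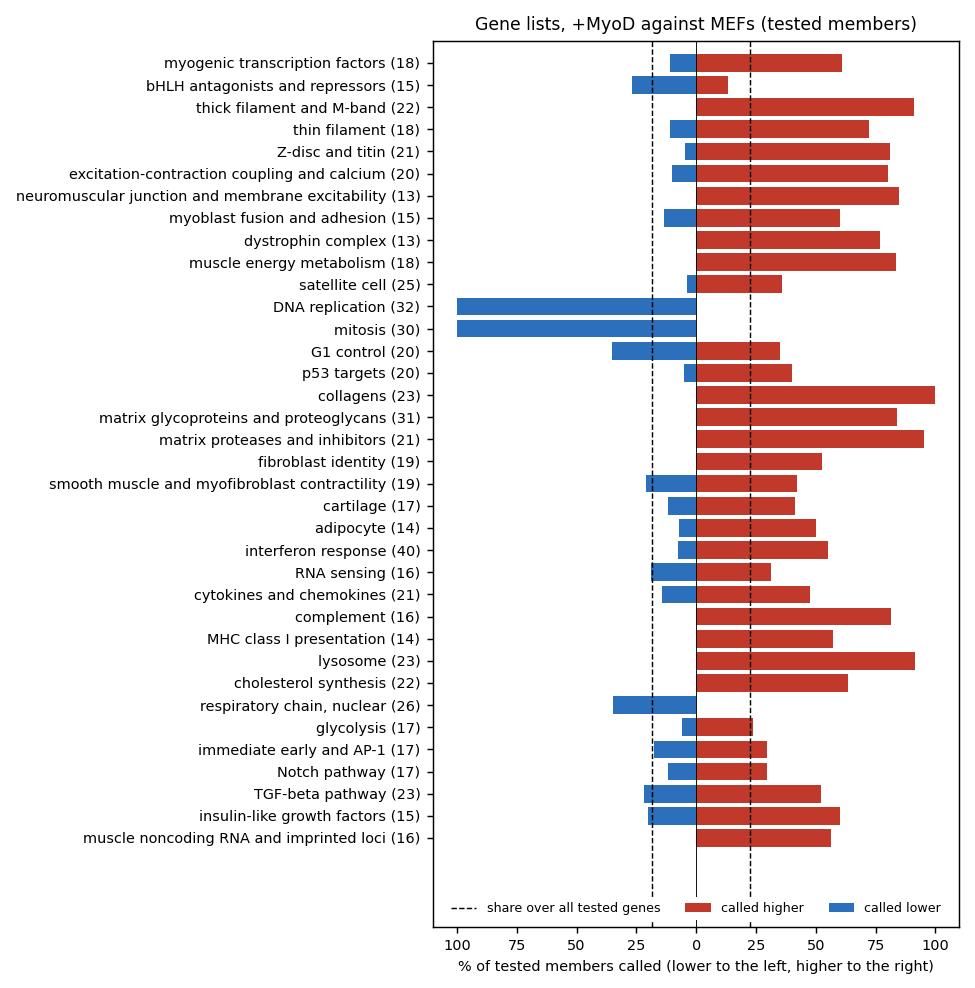
Share of the tested members of 36 gene lists that were called higher (red, to the right) or lower (blue, to the left) with +MyoD, in percent. The number of tested members follows each name, and the dashed lines mark the shares over all tested genes, 22.5% higher and 18.6% lower. DNA replication and mitosis are entirely to the left and collagens entirely to the right.

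Cell division genes fell without exception among those listed. All 32 tested DNA replication genes and all 30 mitosis genes were called lower, against 18.6% of all tested genes. The groups did not overlap in any of these 62 genes, against 9916 of all 19331 tested genes. The median log2FC values of the 2 lists were −2.67 and −3.31. Together these lists took 0.659, 0.639 and 0.593% of the counts in MEFs and 0.0786, 0.0682 and 0.0969% in +MyoD. Mcm10, an initiation factor, had 42.1, 41.6 and 33.5 CPM in MEFs and 1.79, 1.75 and 1.39 CPM in +MyoD (log2FC −4.57 ± 0.20, adjusted p = 5.05e-09), and Mcm4, a subunit of the replicative helicase, had 182, 196 and 185 CPM in MEFs and 36.1, 23.7 and 29.6 CPM in +MyoD (log2FC −2.67 ± 0.15, adjusted p = 1.77e-08). Rrm2, the regulated subunit of ribonucleotide reductase, fell from 391 ± 57.3 to 33.9 ± 12.5 CPM (log2FC −3.59 ± 0.27), and Pcna, the sliding clamp, from 144 ± 6.52 to 29.1 ± 6.87 CPM (log2FC −2.32 ± 0.18). Mki67, the proliferation antigen, had 309, 277 and 241 CPM in MEFs and 26.6, 28.5 and 29.8 CPM in +MyoD (log2FC −3.25 ± 0.20, adjusted p = 4.19e-08), Prc1, an organizer of the central spindle, had 195, 212 and 186 CPM in MEFs and 19.8, 24.4 and 23.3 CPM in +MyoD (log2FC −3.13 ± 0.13, adjusted p = 2.42e-09), and Top2a fell from 438 ± 44.8 to 34.1 ± 3.16 CPM (log2FC −3.65 ± 0.21). Cdk1 and its cyclins Ccnb1 and Ccna2 fell by 3.13, 3.74 and 3.94 on the log2 scale. The smallest decrease of the 62 was in Gins4 (log2FC −0.58 ± 0.15).

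Cdkn2a, Cdkn2b and Cdkn1a, inhibitors of cyclin-dependent kinases, moved the other way. The other inhibitors of the G1 list, Cdkn1b, Cdkn1c, Cdkn2c and Cdkn2d, were not called higher, so the rise does not cover the class as a whole. Of 20 genes of G1 control, 7 were called higher and 7 lower, against 22.5% and 18.6% of all tested genes. Cdkn2a, which encodes p16 and p19ARF, had 19.4, 24.8 and 35.9 CPM in MEFs and 261, 272 and 253 CPM in +MyoD (log2FC 3.31 ± 0.20, adjusted p = 4.32e-08), with no overlap. Cdkn2b, p15, rose from 45.8 ± 10.1 to 164 ± 29.9 CPM (log2FC 1.84 ± 0.17, adjusted p = 1.41e-06) and Cdkn1a, p21, from 359 ± 40.1 to 689.8 ± 101 CPM (log2FC 0.95 ± 0.14, adjusted p = 8.27e-05). Rb1 and Rbl2, pocket proteins of resting and differentiating cells, rose by 0.99 and 0.80 on the log2 scale, while Rbl1, the pocket protein of cycling cells, fell by 2.38. Ccnd3, the D cyclin of differentiating muscle, rose from 130.5 ± 16.5 to 301 ± 66.0 CPM (log2FC 1.18 ± 0.15, adjusted p = 2.77e-05) and Ccnd2 from 686 ± 7.42 to 1230 ± 260.2 CPM (log2FC 0.83 ± 0.12), whereas Ccne2 and E2f7 fell by 3.91 and 4.13. Of 20 p53 targets, 8 were called higher and 1 lower, against the same shares of all tested genes, with a median log2FC of 0.41. Among them Fas, a death receptor, rose from 2.35 ± 0.235 to 24.3 ± 2.49 CPM (log2FC 3.36 ± 0.16, adjusted p = 8.36e-09) and Btg2, an antiproliferative gene, from 51.7 ± 2.92 to 192 ± 41.0 CPM (log2FC 1.85 ± 0.18, adjusted p = 2.51e-06), whereas Mdm2, the main negative regulator of p53, was not called.

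Extracellular matrix genes rose together with the muscle genes. All 23 genes of the collagen list were called higher, against 22.5% of all tested genes, with a median log2FC of 2.14. The groups did not overlap in 21, against 9916 of all 19331 tested genes. They took 0.855, 0.935 and 0.760% of the counts in MEFs and 2.71, 5.78 and 3.34% in +MyoD. Col1a1 had 1384, 2140 and 1291 CPM in MEFs and 5608, 22575 and 7046 CPM in +MyoD (log2FC 2.72 ± 0.28, adjusted p = 3.54e-06) and was highest in line 2 in both groups. Col3a1, the partner of type I collagen in soft tissue, had 304, 232 and 187 CPM in MEFs and 2112, 6792 and 5723 CPM in +MyoD (log2FC 4.31 ± 0.35, adjusted p = 4.18e-07). Col15a1, a basement membrane collagen, had 10.6, 16.2 and 12.3 CPM in MEFs and 321, 197 and 198 CPM in +MyoD (log2FC 4.21 ± 0.22, adjusted p = 1.09e-08), and Col25a1, a membrane collagen that muscle needs for innervation, rose from 0.757 ± 0.175 to 25.1 ± 10.04 CPM (log2FC 5.01 ± 0.27, adjusted p = 1.87e-08). Col5a1, which starts collagen fibrils, rose from 634 ± 89.8 to 2891 ± 1192 CPM (log2FC 2.14 ± 0.17, adjusted p = 3.23e-07). The abundant basement membrane chains Col4a1 and Col4a2 rose by 1.17 and 1.25 on the log2 scale. The groups overlapped for Col12a1 and Col14a1. The list holds only part of the collagen family and was chosen with earlier results of these data known. Col2a1, placed in the cartilage list with other collagen genes, was called lower.

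Other matrix components followed. Of 31 matrix glycoproteins and proteoglycans, 26 were called higher and none lower (median log2FC 1.63), against 22.5% and 18.6% of all tested genes. They took 2.16, 2.88 and 2.54% of the counts in MEFs and 5.78, 6.32 and 3.86% in +MyoD. Thbs2 rose from 95.9 ± 6.39 to 876 ± 186 CPM (log2FC 3.17 ± 0.16, adjusted p = 1.03e-08) and Sparc, a collagen-binding glycoprotein, from 1071 ± 104 to 4479 ± 1288 CPM (log2FC 2.05 ± 0.16, adjusted p = 3.91e-07). Eln, elastin, rose from 0.773 ± 0.552 to 114 ± 91.1 CPM (log2FC 7.20 ± 0.89), and the small proteoglycans Dcn, Lum and Aspn, which shape collagen fibrils, by 2.56, 4.27 and 7.16 on the log2 scale. Tnc, tenascin C, was abundant in both groups at 5392 ± 648 CPM in MEFs and 4640 ± 1496 CPM in +MyoD and not called. Of 21 matrix proteases and inhibitors, 20 were called higher and none lower, against the same shares of all tested genes. Mmp2, a gelatinase, had 138, 140.4 and 135 CPM in MEFs and 1024, 1995 and 1765 CPM in +MyoD (log2FC 3.52 ± 0.21, adjusted p = 3.93e-08), Mmp19 rose from 5.15 ± 1.58 to 152 ± 66.2 CPM (log2FC 4.86 ± 0.28, adjusted p = 2.71e-08) and Mmp3, stromelysin, had 22.4, 56.0 and 35.1 CPM in MEFs and 141, 349 and 1875 CPM in +MyoD (log2FC 4.05 ± 0.68). The inhibitor Timp2 rose from 751 ± 64.5 to 2456 ± 351 CPM (log2FC 1.71 ± 0.10, adjusted p = 4.45e-08), and Timp1 rose (log2FC 0.74 ± 0.27) with overlapping groups.

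**Figure D4:**
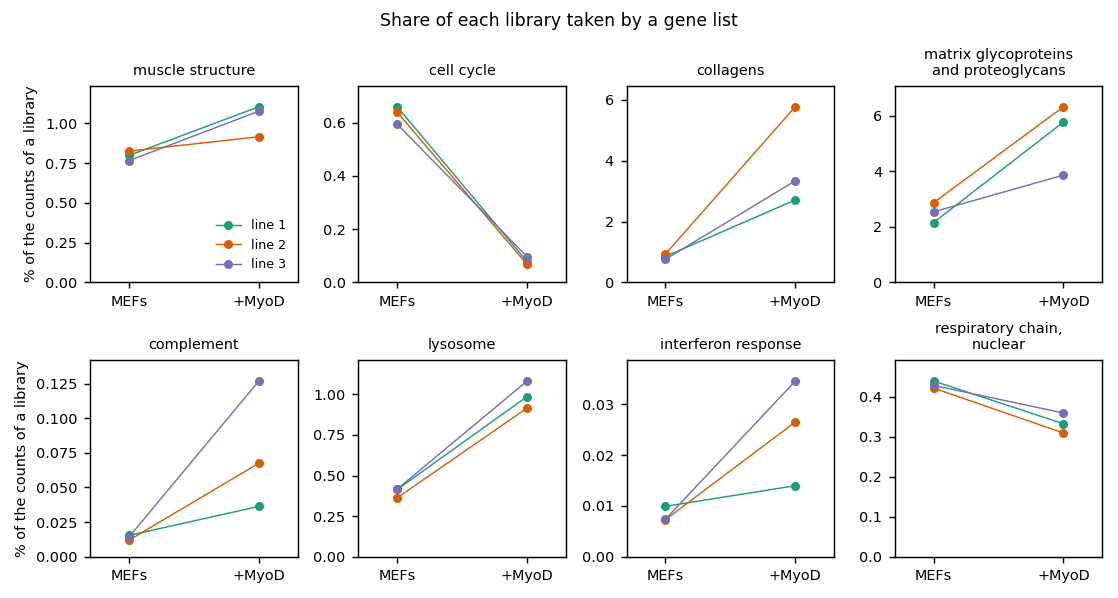
Share of the counts of a library, in percent, taken by 8 gene lists in MEFs and +MyoD. Points are lines 1 to 3, joined within a line, and each y axis starts at 0. The cell cycle share falls and the collagen, matrix and lysosome shares rise in each line, while complement and interferon genes rise most in line 3 and least in line 1.

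No marker of fibroblast identity was called lower. Of 19 tested genes of fibroblast identity, 10 were called higher, against 22.5% of all tested genes. Pdgfrb rose from 36.3 ± 2.53 to 235 ± 45.0 CPM (log2FC 2.68 ± 0.14, adjusted p = 1.12e-08), Thy1 from 316 ± 43.1 to 1321 ± 253 CPM (log2FC 2.05 ± 0.16, adjusted p = 4.05e-07) and Ly6a, the stem cell antigen Sca-1, from 40.8 ± 17.1 to 388 ± 207 CPM (log2FC 3.26 ± 0.28, adjusted p = 7.96e-07). Vim, vimentin, was at 5845 ± 462 CPM in MEFs and 4633 ± 621 CPM in +MyoD (log2FC −0.34 ± 0.13, adjusted p = 0.0419), Prrx1, a homeobox gene of limb mesenchyme, at 460.4 ± 55.6 CPM in MEFs and 374 ± 73.5 CPM in +MyoD, and Pdgfra at 103 ± 33.0 CPM in MEFs and 213 ± 135 CPM in +MyoD, and none of these was called. Of 19 genes of smooth muscle and myofibroblast contractility, 8 were called higher and 4 lower, against 22.5% and 18.6% of all tested genes. Mylk, the smooth muscle light chain kinase, rose from 12.6 ± 1.23 to 128 ± 65.0 CPM (log2FC 3.27 ± 0.33, adjusted p = 3.15e-06), Myh11, smooth muscle myosin, from 28.7 ± 6.13 to 166 ± 48.8 CPM (log2FC 2.52 ± 0.35) and Itga11, a collagen receptor of myofibroblasts, from 3.01 ± 1.06 to 181 ± 228 CPM (log2FC 5.36 ± 0.61). Acta2, smooth muscle actin, had 2415, 3008 and 2277 CPM in MEFs and 3173, 4518 and 1824 CPM in +MyoD and was not called (log2FC 0.32 ± 0.33). Cnn2, a calponin, fell from 1271 ± 59.1 to 775 ± 199.7 CPM (log2FC −0.72 ± 0.15, adjusted p = 0.00158).

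Genes of other mesenchymal fates moved gene by gene. Of 17 tested cartilage genes, 7 were called higher and 2 lower, against 22.5% and 18.6% of all tested genes. Col2a1 and Acan fell, with Col2a1, type II collagen, at 179, 94.9 and 199.6 CPM in MEFs and 43.7, 13.2 and 11.7 CPM in +MyoD (log2FC −2.92 ± 0.46, adjusted p = 1.46e-04) and Acan, aggrecan, at 2.98, 7.22 and 7.26 CPM in MEFs and 0.439, 1.75 and 1.36 CPM in +MyoD (log2FC −2.31 ± 0.49), and Sox9 was not called. Prg4, lubricin of the joint surface, rose from 0.831 ± 0.420 to 63.4 ± 41.5 CPM (log2FC 6.14 ± 0.60, adjusted p = 2.16e-06), Comp, a matrix protein of cartilage and tendon, from 0.296 ± 0.206 to 18.6 ± 11.9 CPM (log2FC 5.82 ± 0.57, adjusted p = 2.44e-06), and Col11a1, a fibril collagen, from 84.9 ± 17.3 to 419.5 ± 312 CPM (log2FC 2.21 ± 0.38). Of 14 tested adipocyte genes, 7 were called higher and 1 lower, against the same shares of all tested genes. Car3 rose from 0.611 ± 0.413 to 35.7 ± 27.6 CPM (log2FC 5.76 ± 0.35, adjusted p = 3.93e-08) and Cd36, a fatty acid transporter, from 2.35 ± 1.22 to 14.8 ± 6.04 CPM (log2FC 2.67 ± 0.27, adjusted p = 2.56e-06), while Pparg, the master regulator of fat cells, fell from 6.46 ± 0.153 to 3.39 ± 0.204 CPM (log2FC −0.93 ± 0.21, adjusted p = 0.0024). Adipoq, the fat cell hormone adiponectin, had no count in MEFs and 0, 0 and 1.81 CPM in +MyoD, so its call rests on line 3 alone, and without that library no count was left.

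Interferon-stimulated genes rose from low levels and unevenly between lines. Of 40 tested genes, 22 were called higher and 3 lower, against 22.5% and 18.6% of all tested genes. Their median log2FC was 1.71 (1.64 with bounds). With only the 6 libraries and the line block in the fit the number called higher was 13. The summed share was 0.00992, 0.00730 and 0.00738% of the counts in MEFs and 0.0140, 0.0265 and 0.0346% in +MyoD, and the median within-line log2 difference was 0.40, 1.53 and 2.47 in lines 1 to 3. Lgals3bp, a secreted glycoprotein, had 5.2, 3.74 and 5.47 CPM in MEFs and 33.0, 84.1 and 104 CPM in +MyoD (log2FC 3.91 ± 0.33, adjusted p = 6.15e-07), Stat2, which carries the interferon signal to the nucleus, had 9.45, 6.99 and 7.23 CPM in MEFs and 16.7, 45.7 and 35.2 CPM in +MyoD (log2FC 1.96 ± 0.28, adjusted p = 5.36e-05) and Ifi27 had 3.09, 3.06 and 3.19 CPM in MEFs and 6.23, 28.4 and 22.8 CPM in +MyoD (log2FC 2.48 ± 0.34, adjusted p = 3.89e-05). The classic markers Isg15 and Ifit1 were at 0.789 ± 0.412 CPM in MEFs and 1.78 ± 1.07 CPM in +MyoD and at 1.22 ± 0.601 CPM in MEFs and 2.05 ± 1.79 CPM in +MyoD, and neither was called. Ifit2 fell from 20.1 ± 1.11 to 11.2 ± 2.12 CPM (log2FC −0.89 ± 0.21, adjusted p = 0.00335). Ifnb1, interferon beta, had no count in any of the 6 libraries.

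Of 16 tested sensors of foreign RNA and their partners, 5 were called higher and 3 lower, against 22.5% higher and 18.6% lower over all tested genes, which is too near to be read as a result about the list. Ddx58, which encodes RIG-I, rose from 15.4 ± 3.13 to 33.9 ± 3.53 CPM (log2FC 1.15 ± 0.22, adjusted p = 6.41e-04), while Ifih1, which encodes MDA5, fell from 5.92 ± 0.587 to 2.42 ± 0.565 CPM (log2FC −1.29 ± 0.32, adjusted p = 0.00475). Ikbke, a kinase below both, rose from 5.39 ± 0.818 to 38.4 ± 8.31 CPM (log2FC 2.81 ± 0.22, adjusted p = 3.48e-07). Zc3hav1, the antiviral zinc finger protein ZAP, fell from 74.7 ± 9.94 to 22.6 ± 2.58 CPM (log2FC −1.73 ± 0.17, adjusted p = 2.43e-06) and Adar, an RNA-editing enzyme, from 75.0 ± 17.4 to 45.8 ± 3.27 CPM (log2FC −0.70 ± 0.15, adjusted p = 0.0016). The other 8 genes were not called.

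Complement genes had the highest median log2FC of the lists outside muscle, at 4.83 (4.05 with bounds). Of the 16 genes, 13 were called higher and none lower, against 22.5% and 18.6% of all tested genes. Their share was 0.0155, 0.0120 and 0.0143% of the counts in MEFs and 0.0363, 0.0675 and 0.127% in +MyoD. C3, the central component, had 0.361, 0.481 and 0.439 CPM in MEFs and 5.58, 11.3 and 93.5 CPM in +MyoD (log2FC 5.98 ± 0.83, adjusted p = 4.88e-05). Serping1, the C1 inhibitor, had 2.81, 1.303 and 0.820 CPM in MEFs and 41.7, 191 and 254 CPM in +MyoD (log2FC 6.38 ± 0.61, adjusted p = 1.74e-06), and Cd59a, a surface inhibitor, rose from 12.4 ± 1.87 to 33.2 ± 1.49 CPM (log2FC 1.42 ± 0.18). Of 21 tested cytokines and chemokines, 10 were called higher and 3 lower, against 22.5% and 18.6% of all tested genes. Ccl7 rose from 5.39 ± 2.13 to 43.8 ± 5.73 CPM (log2FC 3.06 ± 0.29, adjusted p = 1.57e-06), Ccl11, eotaxin, from 0.0559 ± 0.0556 to 8.15 ± 5.35 CPM (log2FC 7.07 ± 0.69, adjusted p = 2.11e-06), and Cxcl12, the abundant stromal chemokine, from 186 ± 16.3 to 613 ± 308 CPM (log2FC 1.63 ± 0.23). Il6 rose from 1.46 ± 0.317 to 8.73 ± 3.12 CPM (log2FC 2.58 ± 0.41), whereas Ccl5 fell from 1.18 ± 0.448 to 0.0390 ± 0.0444 CPM (log2FC −4.99 ± 1.31, adjusted p = 0.00648) and Il1a from 2.54 ± 2.49 to 0.170 ± 0.102 CPM (log2FC −3.81 ± 1.26, adjusted p = 0.0235). Of 14 genes of MHC class I presentation, 8 were called higher and none lower, against the same shares of all tested genes. The peptide transporter genes Tap1 and Tap2 rose from 6.57 ± 2.99 to 46.7 ± 3.25 CPM and from 2.69 ± 0.640 to 28.2 ± 9.54 CPM, Tapbp, tapasin, from 17.5 ± 1.57 to 78.8 ± 23.1 CPM (log2FC 2.14 ± 0.16, adjusted p = 2.27e-07) and the immunoproteasome subunit Psmb8 from 0.151 ± 0.0396 to 3.93 ± 1.48 CPM (log2FC 4.63 ± 0.39, adjusted p = 6.15e-07).

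Housekeeping programs differed in direction, beside 22.5% of all tested genes called higher and 18.6% called lower. Of 23 lysosomal genes, 21 were called higher and none lower, with a median log2FC of 1.17 and a similar shift in each line (1.09, 1.37 and 1.01). The groups did not overlap in all 23, against 9916 of all 19331 tested genes. Their share was 0.414, 0.363 and 0.417% of the counts in MEFs and 0.985, 0.914 and 1.08% in +MyoD. Ctsd, cathepsin D, had 464, 404 and 508 CPM in MEFs and 1886, 1866 and 2131 CPM in +MyoD (log2FC 2.10 ± 0.11, adjusted p = 1.09e-08), Ctsf rose from 4.24 ± 0.717 to 67.9 ± 16.8 CPM (log2FC 3.98 ± 0.19, adjusted p = 8.36e-09), and Tfeb, a transcriptional regulator of lysosomal genes, from 2.67 ± 0.164 to 10.4 ± 4.70 CPM (log2FC 1.85 ± 0.27). Of 22 genes of cholesterol synthesis, 14 were called higher and none lower (median log2FC 0.86), among them Tm7sf2 (3.11 ± 0.268 to 11.7 ± 2.66 CPM, log2FC 1.88 ± 0.21, adjusted p = 6.85e-06), Hsd17b7 (log2FC 0.87 ± 0.13, adjusted p = 8.54e-05) and Nsdhl (log2FC 1.05 ± 0.18, adjusted p = 2.71e-04). Of 26 nuclear genes of the respiratory chain, none were called higher and 9 lower, with a median log2FC of −0.32. Cycs, cytochrome c, fell from 90.3 ± 13.3 to 34.2 ± 6.34 CPM (log2FC −1.41 ± 0.12, adjusted p = 6.12e-07), Cox5a from 103 ± 5.57 to 62.4 ± 1.43 CPM (log2FC −0.73 ± 0.11, adjusted p = 1.05e-04) and Atp5b from 1339 ± 49.3 to 859.6 ± 87.5 CPM (log2FC −0.64 ± 0.11, adjusted p = 2.26e-04). Under a test against a log2FC of 0.5, 3 of these 26 genes were lower. Of 17 glycolysis genes, 4 were called higher and 1 lower, near the shares over all genes. Aldoc rose from 0.682 ± 0.0587 to 7.86 ± 7.23 CPM (log2FC 3.40 ± 0.56, adjusted p = 2.05e-04), Pfkl from 59.6 ± 1.91 to 191 ± 107 CPM (log2FC 1.63 ± 0.33, adjusted p = 9.61e-04) and Hk1 by 0.67 on the log2 scale, while Eno1 fell from 2231 ± 149 to 1276 ± 333 CPM (log2FC −0.83 ± 0.19, adjusted p = 0.00309). Without line 1 in +MyoD, 7 glycolysis genes were called higher.

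Signalling lists held genes called in both directions, against 22.5% higher and 18.6% lower over all tested genes. In the Notch pathway 5 of 17 genes were called higher and 2 lower, and with only the 6 libraries in the fit 3 were higher. Besides Notch3, described above, the ligand Jag2 rose from 0.711 ± 0.0920 to 11.8 ± 4.66 CPM (log2FC 4.03 ± 0.29, adjusted p = 1.45e-07), while the ligand Jag1 fell from 105 ± 42.1 to 31.6 ± 14.1 CPM (log2FC −1.86 ± 0.34, adjusted p = 4.93e-04) and the target Hey2 from 1.08 ± 0.381 to 0.145 ± 0.202 CPM (log2FC −3.48 ± 0.97, adjusted p = 0.00892). In the TGF-β family 12 of 23 genes were called higher and 5 lower (median log2FC 0.60). Inhbb, an activin subunit, had 16.1, 9.29 and 8.16 CPM in MEFs and 258, 299 and 164 CPM in +MyoD (log2FC 4.40 ± 0.25, adjusted p = 2.58e-08), Tgfbr2, the type II receptor, rose from 87.2 ± 4.96 to 283 ± 55.6 CPM (log2FC 1.68 ± 0.12, adjusted p = 1.38e-07) and Mstn, myostatin, which restrains muscle growth, from 0.0293 ± 0.0507 to 1.22 ± 0.915 CPM (a ratio of 42.9, 95% interval 14.3 to 211). The inhibitory Smad7 fell from 123 ± 35.9 to 53.3 ± 15.98 CPM (log2FC −1.22 ± 0.24, adjusted p = 7.43e-04), Skil from 155 ± 37.7 to 76.4 ± 17.4 CPM (log2FC −1.04 ± 0.23, adjusted p = 0.00231) and the activin binder Fst from 335 ± 96.8 to 154 ± 86.9 CPM (log2FC −1.14 ± 0.27, adjusted p = 0.00327). Among 15 insulin-like growth factor genes, 9 were called higher and 3 lower (median log2FC 1.32). Igf1 rose from 2.74 ± 0.837 to 17.6 ± 8.58 CPM (log2FC 2.69 ± 0.37), Igf2r from 468 ± 6.08 to 1449 ± 299.5 CPM (log2FC 1.64 ± 0.16, adjusted p = 2.44e-06) and the binding proteins Igfbp7 and Igfbp3 from 84.5 ± 12.4 to 451 ± 171 CPM and from 19.6 ± 2.13 to 639 ± 407 CPM. The RNA-binding proteins Igf2bp1, Igf2bp2 and Igf2bp3 fell by 1.42, 0.62 and 0.85 on the log2 scale. Among 17 immediate early genes, 5 were called higher and 3 lower. Egr1 rose from 52.9 ± 6.50 to 348 ± 266 CPM (log2FC 2.45 ± 0.27, adjusted p = 7.37e-06) and Fos from 6.91 ± 0.661 to 82.8 ± 61.3 CPM (log2FC 3.23 ± 0.49), while Myc fell from 190.1 ± 62.9 to 41.5 ± 14.7 CPM (log2FC −2.20 ± 0.27, adjusted p = 1.44e-05), Fosl1 from 156 ± 32.2 to 27.5 ± 16.1 CPM (log2FC −2.53 ± 0.39, adjusted p = 1.29e-04) and Klf6 from 384 ± 46.5 to 203 ± 48.2 CPM (log2FC −0.93 ± 0.16, adjusted p = 2.51e-04). Without the line block 3 of these 17 genes were higher.

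In a list of 16 noncoding RNA genes and genes of imprinted loci, some of them protein-coding, 9 were called higher and none lower (median log2FC 0.73). The shares over all tested genes were 22.5% and 18.6%. H19, an imprinted RNA that is abundant in embryonic muscle, had 366, 576 and 319 CPM in MEFs and 1362, 9823 and 7640 CPM in +MyoD (log2FC 3.82 ± 0.48, adjusted p = 2.20e-05), lowest in line 1 of the +MyoD lines. Meg3 had 230.0, 169.5 and 252 CPM in MEFs and 995, 2083 and 1056 CPM in +MyoD (log2FC 2.58 ± 0.30, adjusted p = 9.67e-06), and the nuclear RNA Malat1 rose from 300.2 ± 56.6 to 603 ± 114 CPM (log2FC 1.01 ± 0.16, adjusted p = 1.15e-04). Igf2, the protein-coding neighbour of H19, had 1139, 1835 and 1372 CPM in MEFs and 827, 7323 and 3920 CPM in +MyoD (log2FC 1.32 ± 0.42), and its groups overlapped. The long noncoding RNAs with the highest log2FC among those of at least 1 CPM were less well known. 1700087I21Rik, A930003A15Rik, Hectd2os and Gm15987 had no count in MEFs and means of 2.57, 1.89, 1.36 and 1.27 CPM in +MyoD, and A530020G20Rik rose from 0.0478 ± 0.0444 to 5.31 ± 3.09 CPM (log2FC 6.59 ± 0.62). Among the lowest, Ptgs2os, antisense to the prostaglandin synthase gene Ptgs2, had 3.81, 7.33 and 9.60 CPM in MEFs and 2.69, 0.524 and 0.237 CPM in +MyoD (log2FC −3.32 ± 0.94, adjusted p = 0.0101), and Gm12953 had 4.73, 6.20 and 5.82 CPM in MEFs and 2.57, 0.116 and 0.386 CPM in +MyoD (log2FC −3.06 ± 0.72, adjusted p = 0.00311). AC093020.1 and Gm29170 were also among the lowest.

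Markers of cell types were also counted, against 22.5% called higher and 18.6% lower over all tested genes. The 10 skeletal muscle markers were all called higher, from a sum of 35.5 to 48.7 CPM in MEFs to 1240 to 1957 CPM in +MyoD, and 7 of 10 fibroblast markers were higher and none lower. Of 13 tested macrophage markers none was called, with a sum of 27.7 to 39.9 CPM in MEFs and 17.9 to 34.8 CPM in +MyoD, and of 10 endothelial markers 1 was higher (Esam) and 1 lower (Kdr), with sums of 14.01 to 15.5 and 18.8 to 27.9 CPM. Epithelial markers summed to 165.6 to 168.0 CPM in MEFs and 24.4 to 42.5 CPM in +MyoD, with 4 of 7 tested called lower, among them the keratin genes Krt8, Krt18 and Krt19. Of 12 neuronal markers 2 were higher and 3 lower, of 8 glial markers 1 was higher, and of 6 melanocyte markers 2 were higher and 1 lower. Of 9 cardiac markers 1 was higher and 2 lower, and of 6 hepatocyte markers 1 was higher. These counts, and those of the endothelial markers, do not set the lists apart from other genes. Neuronal markers summed to 237.7 to 257.2 and 174.5 to 280.0 CPM, glial markers to 12.7 to 17.3 and 5.995 to 54.1 CPM, melanocyte markers to 5.15 to 5.55 and 10.1 to 15.8 CPM, cardiac markers to 25.7 to 30.7 and 24.7 to 37.1 CPM, and hepatocyte markers to 0.527 to 1.39 and 1.28 to 1.54 CPM. The highest sum of glial markers was that of the +MyoD library of line 1. The endothelial marker Cldn5 was at 0 counts in the 6 libraries. The part of other cell types in the differences above was not tested.

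Most called genes moved in the same direction in each of the 3 lines, but not to the same degree. Over the genes called higher, the median within-line log2 difference was 1.19 in line 1, 1.75 in line 2 and 1.55 in line 3, and over the genes called lower it was −0.83, −1.17 and −1.13. Line 1, which had the highest Myod1 level, had the smallest shift in both directions. The medians of the thick filament were 6.62, 6.93 and 6.97 in lines 1 to 3, and those of the thin filament 5.42, 4.89 and 5.38. The widest spread between lists was in complement, at 1.77, 3.12 and 4.52, in adipocyte genes, at 0, 0.81 and 2.57, and in interferon-stimulated genes. Among called genes with a mean of at least 10 CPM, 7 of the 8 with the widest range between lines changed least in line 1, and the other, a gene whose symbol is shared by 2 gene IDs, changed least in line 2. Serpinb2, a protease inhibitor, had 104, 194 and 144 CPM in MEFs and 47.0, 0.553 and 2.25 CPM in +MyoD (log2FC −4.37 ± 1.05, adjusted p = 0.00352). Nefl, neurofilament light chain, had 32.6, 15.2 and 24.9 CPM in MEFs and 11.6, 0 and 1.25 CPM in +MyoD (log2FC −3.27 ± 0.72, adjusted p = 0.00189), and Gm10131 had 24.3, 29.4 and 38.3 CPM in MEFs and 3.95, 0.757 and 0 CPM in +MyoD (log2FC −4.93 ± 0.96), all with more left in line 1. Among genes called higher, Pygl, liver glycogen phosphorylase, had 1.86, 0.396 and 1.02 CPM in MEFs and 1.97, 53.8 and 16.6 CPM in +MyoD (log2FC 4.14 ± 0.86, adjusted p = 0.00129), Tnn, tenascin N, had 0.222, 0.481 and 0.293 CPM in MEFs and 0.345, 59.5 and 11.99 CPM in +MyoD (log2FC 5.62 ± 1.04, adjusted p = 5.25e-04) and Ifitm1, an interferon-induced membrane protein, had 0.890, 0.340 and 0.0878 CPM in MEFs and 3.85, 14.2 and 48.2 CPM in +MyoD (log2FC 5.40 ± 0.82, adjusted p = 1.06e-04). Pygl and Tnn were near their MEFs level in line 1, and Ifitm1 rose least there. Lce1h, described above, also kept its highest +MyoD level in line 1. Whether the size of the response in a line goes with its Myod1 level was not tested, since 3 lines are too few.

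**Figure D5:**
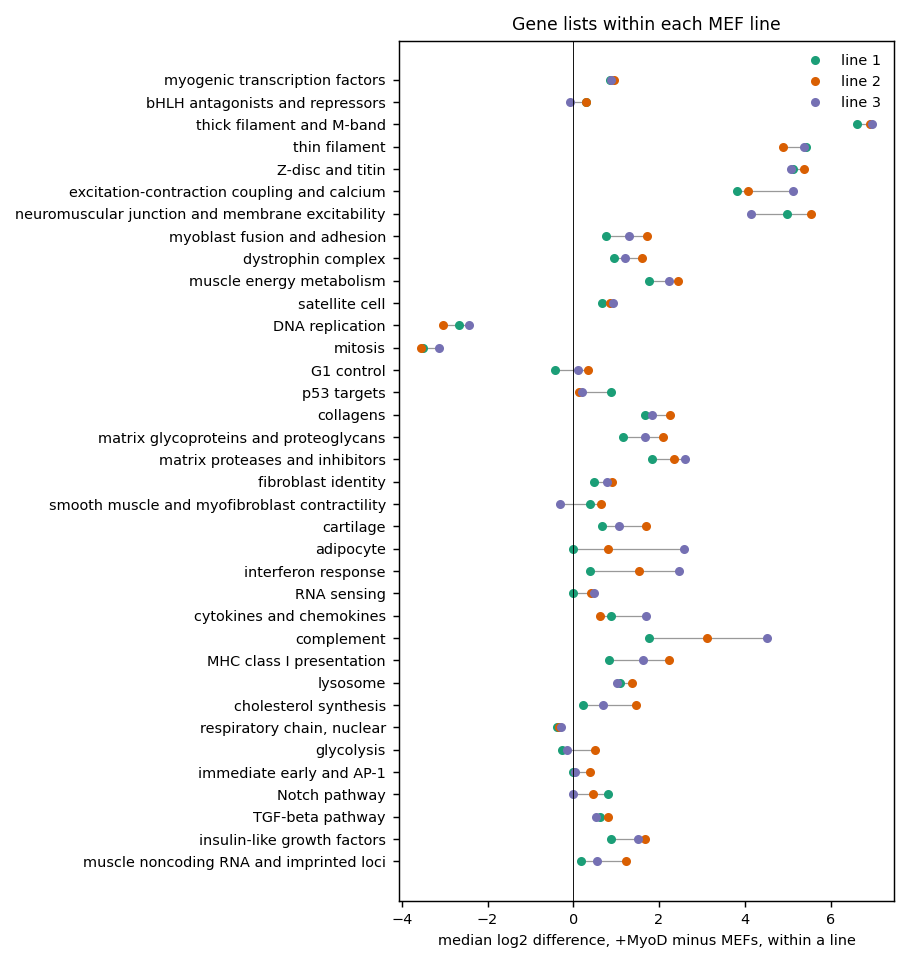
Median log2 difference of the tested members of each list, +MyoD minus MEFs, within line 1, 2 and 3 (x axis). Thick filament, mitosis and lysosome genes lie close together in the 3 lines, whereas complement, adipocyte and interferon genes spread, with line 1 lowest and line 3 highest.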

How the data were processed

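RNA-seq libraries (poly-A selected, stranded, single-end) of 3 MEF lines in 5 conditions were deposited, of which the MEFs and +MyoD libraries were compared here. The authors trimmed reads with fastp 0.20.0 after bcl2fastq 2.20 and quantified transcripts with kallisto 0.46.1 on GRCm38.p6, and the deposited files give estimated counts and TPM per transcript. Estimated counts were summed per gene with the GENCODE M21 annotation (121104 of 121843 transcripts matched, and the rest held 0.236 to 0.327% of the counts) and rounded. Synthetic MyoD reads were not quantified separately. Estimates of near-identical genes share reads.

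Genes were filtered with filterByExpr (minimum count 10, minimum total 15), scaled by TMM and tested with edgeR 4.0.16 in R 4.3.3. The fit used all 15 libraries with group and line as terms, and p-values were adjusted by Benjamini-Hochberg over 19331 genes. Libraries are paired because a replicate number marks cells from the same embryo. Deviations from group means correlated at 0.074 on average between libraries of the same line (range −0.0038 to 0.24) and at −0.037 between lines over the 15 libraries, and at 0.024 (0.018 to 0.028) and −0.012 over the 6 compared. Since each group was centred on its own mean, the values between lines largely follow from those within lines. The correlations are small, and the pairing rests on the source of the cells. Within-line differences used a prior count of 2. Intervals of ratios are 95% and cover counting error only. The alternatives were DESeq2 1.42.0, limma 3.58.1 voom, other scalings, filters, thresholds and samples, and leaving out each library. The scripts were tested on simulated data.

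The comparison, gene lists and tests were chosen with earlier results of these data known. Named genes are Myod1 and the alpha-globin genes, the 12 highest and 12 lowest log2FC values among called genes (at least 1 CPM in the higher group, no overlap, same direction in 3 lines), the 10 most abundant called genes in each direction, up to 3 members of a list in each direction by p with members needed to describe it, the 5 highest and 5 lowest long noncoding RNAs, and called genes of at least 10 CPM with the widest range between lines. A gene whose symbol 2 gene IDs share is not named in the last group, and some genes are not reported here. Promoters were RefSeq windows. Figures were drawn with matplotlib 3.10.9 in Python 3.11.15.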

Additional observations from a re-analysis of the deposited data

How the results depend on the processing

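The numbers of genes called higher and lower stayed within 1.5 times the reported ones in 17 alternatives, from 3164 to 4726 higher and from 2418 to 3850 lower, and no call was opposite in any of them. Genes called higher made up 54.8% of calls, and 49.3 to 58.1% over the alternatives. Leaving out 1 library at a time gave 3702 to 4417 higher and 3221 to 3819 lower. Without the replicate block 4409 genes were higher and 3470 lower. With only the 6 libraries in the fit the counts were 3164 and 3260 with the block and 3621 and 3373 without it. Without TMM the median log2FC of all genes was 0.15. Over 41 counts of called genes and list members and 697 settings, 8 counts moved by more than 1.5 times, and the cause was not tested. Against a log2FC of 0.5 the lower bHLH antagonists went from 4 to 2 and the lower respiratory chain genes from 9 to 3. With only the 6 libraries and the block the higher interferon genes went from 22 to 13 and the higher Notch genes from 5 to 3, and without the block the Notch count was also 3. Higher immediate early genes went from 5 to 3 without the replicate block, in all 15 libraries as in the 6. Without +MyoD replicate 1 the higher glycolysis genes went from 4 to 7.

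Of 264 called genes named in the text, 220 kept their call and direction in every alternative in which they were tested. The call was lost in 10 alternatives for Fbln2, in 9 for Tcf12 and in 8 each for Flnc, Kcnip1, Timp1 and AC093020.1, and in 7 for Igf2. The direction of 9 genes, of which Adipoq alone was called, changed when 1 library was left out, and their log2FC ranged from −0.0747 to 7.96 for Adipoq, −0.0375 to 0.704 for Acta2, −0.151 to 0.404 for Chrnb1, −0.22 to 0.234 for Cldn5, −0.105 to 1.52 for Ifit1, −0.313 to 0.447 for Mdm2, −0.0762 to 0.219 for Mef2d, −0.933 to 0.0112 for Sox9 and −0.561 to 0.0746 for Tnc. With length-scaled TPM the log2FC was −0.253 for Dmd and −0.0725 for Mef2d, and with limma voom −0.039 for Mdm2 and −0.0184 for Mef2d. Cldn5 had no count in the 6 libraries, so its fitted values carry no information. Residual degrees of freedom were 2 with the 6 libraries and the block, against 8 with all 15.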
